A study of Mus musculus with 2 samples.

Results

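Dense clusters of distal open sites were described in ovary chromatin of aged mice. A site was a region of the autosomes that held a DNase I peak in both libraries and lay over 2 kb from every transcript start of a protein-coding gene. Sites separated by gaps of at most 12 500 bp were joined, and a cluster was kept where it held at least 8 of them. The members were thus selected on peak positions and peak presence in these same libraries, so their number and spacing are a description and are not tested. The rule kept 766 sites in 82 clusters, out of 39191 distal autosomal sites, which is 1.95% of them, and out of 64875 regions shared by the libraries on the autosomes and the X chromosome.

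DNase-seq finds accessible chromatin by sequencing the ends that the nuclease leaves where it cuts open DNA. The tissue was whole ovary of B6CASTF1/J females, hybrids of C57BL/6 and CAST mice, aged 18 to 20 months. It formed 1 group with 2 libraries, labelled biological replicates 1 and 2. They have separate tissue entries under the same donor entry, so whether they come from different animals is not known, and no younger or other tissue was available for comparison. All cell types of the organ contribute to every value.

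Dense groups of distal sites are often regulatory regions in which several enhancers lie side by side, and some have been described as locus control regions or super-enhancers. Enhancers are bound by transcription factors and act on promoters over a distance. Other dense groups hold promoters of small non-coding genes, among them tRNA genes, which RNA polymerase III transcribes. Open chromatin alone does not show which of these a site is, nor which gene it acts on, so each cluster is named here after the protein-coding gene with the nearest start, as an address only.

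The strength of a site is the authors' depth-scaled signal, on a linear scale, taken from the strongest peak of each library in the region. Its smallest step was 0.0108 (replicate 1) and 0.00782 (replicate 2). The absolute depth is unknown, so no interval from counts can be given for it. The longer peak lists, which define the sites, held 95898 peaks in replicate 1 and 83982 in replicate 2. The shorter, stricter lists held 60823 and 50503. Promoters were counted as open where a shared region lay within 500 bp of a start. Open promoters were found at 16 of 17 granulosa cell genes, 12 of 14 theca and steroid genes, 11 of 12 smooth muscle and pericyte genes, 5 of 16 oocyte genes, 5 of 11 neuron genes, 4 of 12 skeletal muscle genes, 4 of 12 T cell genes, 0 of 13 macrophage genes and 0 of 12 hepatocyte genes of the marker lists, against 62.9% of all autosomal protein-coding genes.

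Of the 82 clusters, 34 held 8 sites, 22 held 9, 12 held 10 and 5 held 11. A further 4 held 12, and the largest held 13, 14, 15, 15 and 16 sites. Just outside the threshold lay 67 clusters of 7 sites, with 469 sites in all, and 182 clusters of 6. The clusters spanned 9.5 to 71.5 kb, with a median of 33.9 kb and a total of 2.87 Mb. The sites themselves took up 6.59% of that length. Spacing between neighbouring sites averaged 1.23 to 7.92 kb per cluster, and 137 of the 684 gaps (20.0%) were under 500 bp, against 17.1% of gaps in clusters of 2 to 7 sites. Neighbours that close were counted as separate sites, as the peak lists give them.

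The clusters lay on 18 of the 19 autosomes, with none on chromosome 3. Chromosome 11 held 11 clusters with 116 sites, or 4.22% of its distal sites. Chromosome 8 held 9 clusters with 84 sites (3.98%), whereas on chromosomes 9 and 10 the clusters took 0.812% and 0.802% of the distal sites.

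The strongest site of 6 of the clusters with most sites, by mean rank over both libraries, is shown here as the central 200 bp of the forward strand of GRCm38, read from the RefSeq assembly. At Cyb5d1 the site shown had 7.25 and 7.45, whereas another site had 5.53 and 10.8 and was the highest in replicate 2. Capitals mark bases inside footprints of both libraries. Footprints are short stretches within a peak that were cut less than their surroundings, as the authors called them. These sequences show the strongest sites of clusters with most sites, and some elements that 2 of them share are described after them.
Cstad, chr2:30712121-30712320: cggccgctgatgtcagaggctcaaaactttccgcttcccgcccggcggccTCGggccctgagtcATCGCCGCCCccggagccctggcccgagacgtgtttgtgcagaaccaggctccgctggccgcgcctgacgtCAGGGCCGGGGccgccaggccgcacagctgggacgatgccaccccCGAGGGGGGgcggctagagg
Cyb5d1, chr11:69417571-69417770: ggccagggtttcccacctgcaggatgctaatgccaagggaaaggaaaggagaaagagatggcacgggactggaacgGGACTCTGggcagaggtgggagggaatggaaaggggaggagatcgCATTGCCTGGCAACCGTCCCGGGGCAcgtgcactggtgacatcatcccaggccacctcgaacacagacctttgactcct
Sfi1, chr11:3123901-3124100: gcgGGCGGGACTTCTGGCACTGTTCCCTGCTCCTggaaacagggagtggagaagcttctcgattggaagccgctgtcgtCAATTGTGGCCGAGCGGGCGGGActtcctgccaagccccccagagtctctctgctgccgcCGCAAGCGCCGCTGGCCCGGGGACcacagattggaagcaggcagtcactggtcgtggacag
Ly86, chr13:37457091-37457290: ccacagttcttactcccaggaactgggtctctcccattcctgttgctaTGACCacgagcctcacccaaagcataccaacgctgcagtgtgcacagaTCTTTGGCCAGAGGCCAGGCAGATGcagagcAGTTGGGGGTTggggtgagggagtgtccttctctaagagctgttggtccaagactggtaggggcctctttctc
Zmiz1, chr14:25346091-25346290: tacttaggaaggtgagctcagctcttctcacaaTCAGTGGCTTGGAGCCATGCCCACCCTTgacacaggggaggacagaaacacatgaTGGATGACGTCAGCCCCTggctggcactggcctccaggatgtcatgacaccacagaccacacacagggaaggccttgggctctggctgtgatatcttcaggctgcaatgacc
Nanos3, chr8:84198451-84198650: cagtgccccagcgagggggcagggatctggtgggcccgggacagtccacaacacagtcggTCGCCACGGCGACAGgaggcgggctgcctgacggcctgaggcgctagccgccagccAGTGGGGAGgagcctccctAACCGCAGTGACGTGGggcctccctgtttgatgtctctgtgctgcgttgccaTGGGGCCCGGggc
In the sequences of Cyb5d1 and Nanos3 lay an X-box, the palindromic element that factors of the RFX family bind, at positions 123 to 135 and 60 to 73. All of its letters were in footprints of both libraries in Cyb5d1, and 13 of 14 letters in Nanos3. The sequence of Zmiz1 held a match to the cyclic AMP response element TGACGTCA, at position 93, that lay wholly in footprints of both libraries. That of Cstad held the same element at position 130, only partly in footprints.

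The X-box was searched after sequences of the strongest sites had been seen, so its count is a description that was chosen on these sites. Among cluster sites 10 of 766 held it (1.31%), in 9 clusters, against 164 of the other 38425 distal sites (0.427%). By mean rank over both libraries, 5 of the 82 strongest sites of a cluster held it (6.10%), against 5 of the 684 remaining cluster sites (0.731%). The Cyb5d1 and Nanos3 sites, seen before the search, are among these 5 strongest sites. The contrast between strongest and remaining sites thus follows in part from the choice and is no support for it. At a mean signal of 8 or more, 2 of 13 cluster sites held an X-box, against 1 of 131 other distal sites (0.763%). At a mean signal of 4 to 8 it was 3 of 55 (5.45%), against 8 of 818 (0.978%). The Cyb5d1 and Nanos3 sites are also among these 3, so this contrast too was partly set by the choice. In cluster sites 80% of matches lay in footprints in replicate 1 and 90% in replicate 2, compared with 39.3% and 58.3% in other distal sites. The matches of Cyb5d1 and Nanos3, seen with footprints marked before the search, are among the cluster matches. The 10 sites had median signals of 3.57 and 4.97, against 1.45 and 1.38 in cluster sites without the element. Other distal sites with the element had 0.915 and 1.06, so the footprint shares were not compared at equal signal. The counts are small, and the part of GC content, which differed between the sets, was not tested. The part of signal in the footprint shares was not tested either.

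Another 3 sequences show sites on which other results turn.
Olfr1423 site at a tRNA gene, chr19:12012281-12012480: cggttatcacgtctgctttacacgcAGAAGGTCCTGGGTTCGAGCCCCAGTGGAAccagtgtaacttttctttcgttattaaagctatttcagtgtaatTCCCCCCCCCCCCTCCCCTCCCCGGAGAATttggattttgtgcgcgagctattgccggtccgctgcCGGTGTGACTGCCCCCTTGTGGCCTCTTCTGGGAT
Cstad site with an NR5A match, chr2:30685171-30685370: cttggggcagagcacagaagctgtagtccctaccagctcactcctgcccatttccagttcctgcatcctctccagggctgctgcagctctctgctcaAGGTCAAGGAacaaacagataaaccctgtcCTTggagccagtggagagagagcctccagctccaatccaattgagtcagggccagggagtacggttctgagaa
Chd2 site with a CTCF match, chr7:73618451-73618650: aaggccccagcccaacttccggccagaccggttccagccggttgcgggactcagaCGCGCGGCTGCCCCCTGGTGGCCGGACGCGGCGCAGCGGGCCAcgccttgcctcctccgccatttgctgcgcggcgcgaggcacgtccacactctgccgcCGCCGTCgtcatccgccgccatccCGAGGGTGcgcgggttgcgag
The Olfr1423 site holds the B box of tRNA genes (searched as GTTCGANNC), which the polymerase III factor TFIIIC binds, wholly inside footprints of both libraries at positions 38 to 46. The B box, too, was searched after the sequences had been seen. The Cstad site holds the NR5A element TCAAGGTCA, which the steroidogenic factors SF-1 and LRH-1 bind, at position 95. Its AGGTCA part lay in footprints of both libraries, and the whole element only partly. In the Chd2 site the CTCF element at position 65 lay wholly inside footprints of both libraries.

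The cluster with most sites lay on chromosome 2 (chr2:30677021-30719360), 71.8 kb from the start of Cstad. All of its 16 sites were intergenic, and 14 were in the shorter lists of both libraries. Site signals ran from 1.00 to 4.91 in replicate 1 with a median of 2.2, and from 0.860 to 6.50 in replicate 2 with a median of 3.03. Signal was spread over many sites, and the same 4 sites were above 4 in both libraries. Starts of the non-coding genes Gm14486 and Gm14488 lay within 500 bp of sites. Of the 16 sites, 3 held an NR5A match and 7 a KLF/SP match.

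The Cyb5d1 cluster on chromosome 11 (chr11:69389641-69433441) had 15 sites among the starts of Kdm6b, a demethylase of histone H3 lysine 27, Tmem88, Naa38 and Cyb5d1, and in the body of Dnah2, an axonemal dynein chain. Its signals ran from 0.926 to 7.25 (median 2.36) in replicate 1 and from 0.594 to 10.8 (median 2.32) in replicate 2. The libraries differed between the sites, since 25 further regions within the span were called in replicate 2 only and 0 in replicate 1 only. Bases in the authors' list of raised cut rates, with a false discovery rate below 0.05, made up 44.9% of the span in replicate 2 and 19.7% in replicate 1. The number of sites in the span was 30 with replicate 2 alone and 16 with replicate 1 alone.

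The Sfi1 cluster (chr11:3123221-3181580), also with 15 sites, lay over Sfi1, which encodes a centrin-binding protein of the centrosome. Its strongest site had 8.21 and 10.8, and its medians were 1.90 and 2.35. Of its sites 3, the strongest among them, had near-identical copies elsewhere on the assembled chromosomes, so reads there can come from several loci. The 14 sites of the Ly86 cluster (chr13:37434141-37492458) were intergenic and 88.8 kb or more from the start of Ly86, which encodes the MD-1 protein of B cells and macrophages. Its medians were 1.27 and 1.57, and no shared peak lay at the Ly86 promoter.

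Zmiz1, which encodes a coactivator of nuclear receptors and Notch, was nearest to a pair of clusters. The 13 intergenic sites of the upstream cluster (chr14:25343301-25405484) began 53.7 kb from the nearest Zmiz1 start, with medians of 1.59 and 1.57. Its strongest site in replicate 1 was chr14:25346081-25346300, with 4.32 and 4.44, and that in replicate 2 was chr14:25353881-25354140, with 3.63 and 4.62. The second cluster (chr14:25488119-25533358) had 11 sites, all in Zmiz1 introns, with medians of 1.67 and 2.11. Its signals were the most even of all clusters in replicate 2, where the strongest site was 1.4 times the median.

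Socs3, the feedback inhibitor of cytokine receptor signalling through STAT factors, lay inside a cluster of 12 intergenic sites (chr11:117930921-117979685). The site 5.49 kb from the Socs3 start had 12.1 and 13.3, and its neighbour at 6.67 kb had 6.21 and 11.1. The remaining 10 sites ranged from 0.603 to 2.36 and from 0.758 to 2.25. Both strong sites therefore stood above all others of the cluster in each library.

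**Figure D1:**
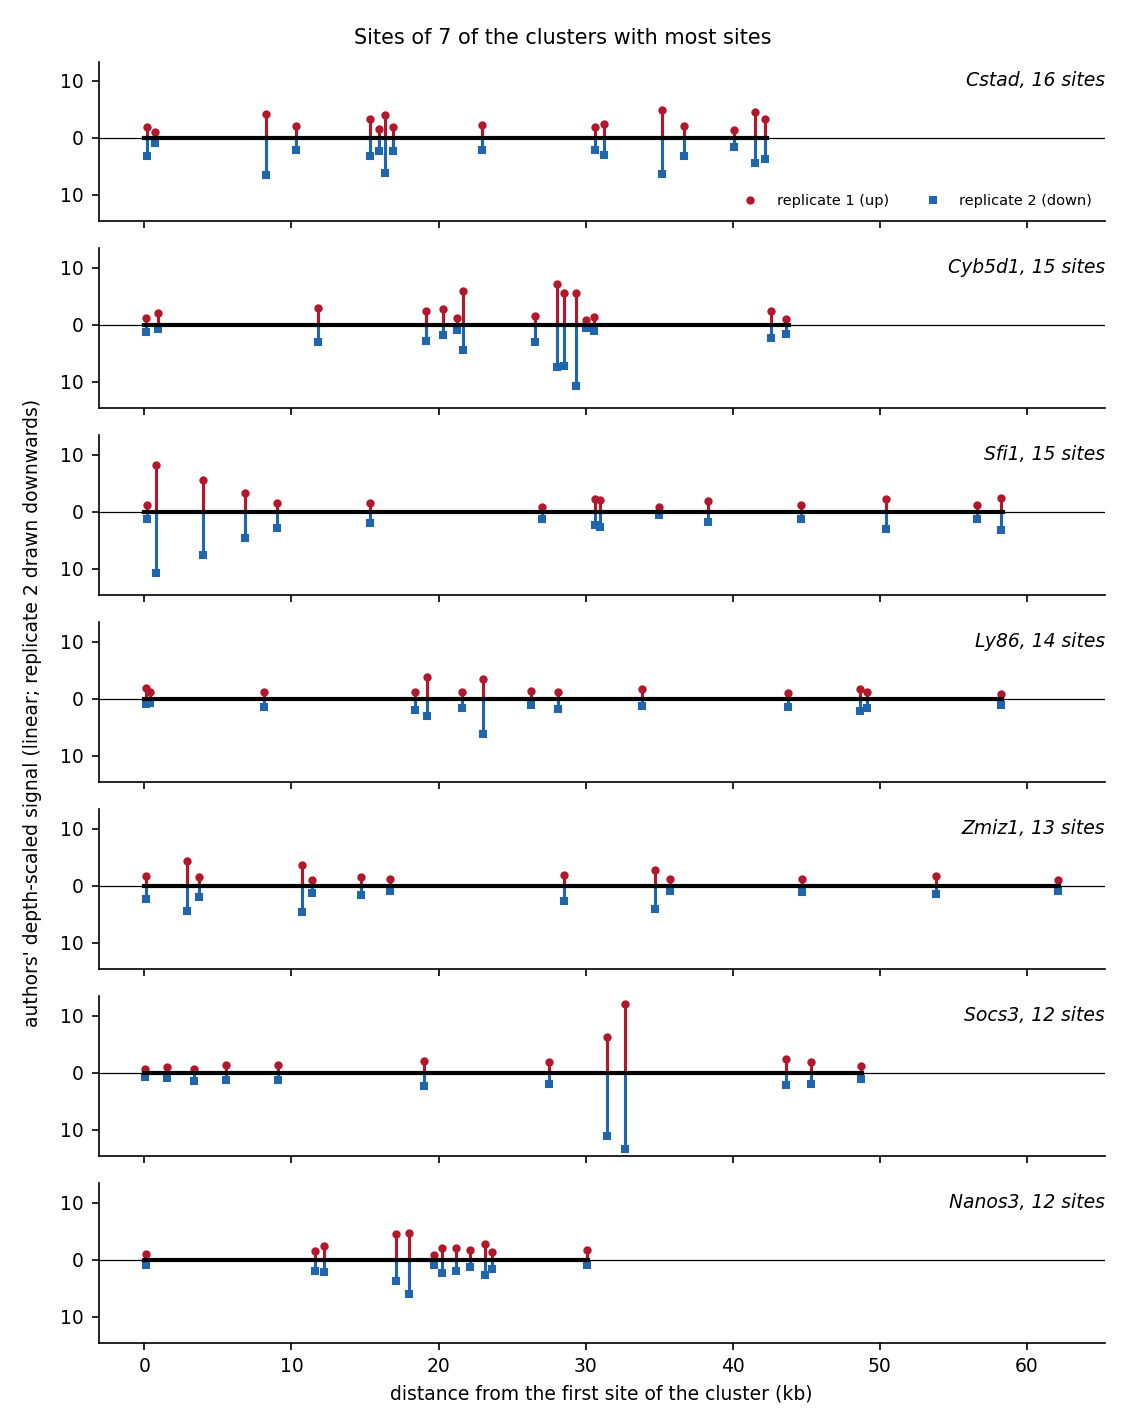
Sites of 7 of the clusters with most sites, by distance from the first site in kb. Stems give the authors' depth-scaled signal of each site in replicate 1 (up) and replicate 2 (down), both on a linear scale; the thick bar is the span. The strongest site of Socs3, with 12.1 and 13.3, stands above its neighbours, while the 16 sites of Cstad reach at most 4.91 and 6.50.

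Among the remaining clusters with most sites, Nanos3 (chr8:84180561-84210720, 12 sites) lay around an RNA-binding protein gene of germ cells whose own promoter had no shared peak. Its medians were 1.94 and 2.00. Gse1 (chr8:120264961-120301120) had 12 intronic sites with medians of 1.64 and 1.53. The 11 sites at Ube2v1 (chr2:167570001-167605480), which encodes a ubiquitin-conjugating enzyme variant, were all intergenic, with medians of 1.00 and 1.06 and a strongest site of 4.54 and 6.89. Rtn4rl1 (chr11:75212107-75260587) had 11 intronic sites, none above 1.71 and 2.07. Tarbp1 (chr8:126514141-126551260) had 10 intergenic sites, the strongest with 9.06 and 8.72 against medians of 1.48 and 1.57.

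Clusters were sought at the genes of 23 lists of cell type markers, of the ovary and of other tissues, transcription factors and pathways. Of their 345 autosomal genes 8 had a cluster, counted where the cluster overlapped the gene or the gene had the nearest start. That is 2.32% of the list genes, against 99 of all 20780 autosomal protein-coding genes, or 0.476%. By overlap alone it was 6 of the list genes, against 61 of all. The lists were chosen with earlier results of these data known, so the difference is a description. The 8 were Rara, Socs3, Scarb1, Smad7, Col6a3, Sox4, Tcf7l1 and Klf9. No gene of the granulosa, luteal, stroma, smooth muscle, endothelial, surface epithelium, oviduct, oocyte, macrophage or T cell lists had a cluster. The same held for the hepatocyte, neuron, skeletal muscle, AP-1, Hippo and follicle signalling lists.

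Rara, the retinoic acid receptor alpha, held 9 intronic sites of a cluster of 11 (chr11:98925481-98975620). Its medians were 2.66 and 2.78, among the 5 highest by the mean of both libraries. The 4 sites highest in replicate 2 had 5.65, 6.70, 3.84 and 5.84 there, and 3.55, 3.28, 2.42 and 3.65 in replicate 1. Replicate 2 was the higher library at 8 of the 11 sites. Of the other 3, the site at chr11:98972321-98972520 had 1.22 in replicate 2 and 3.35 in replicate 1.

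Scarb1, the receptor through which steroid-producing cells take up cholesterol from high-density lipoprotein, was nearest to a cluster of 8 intergenic sites (chr5:125245749-125274180), 9.98 to 38.2 kb from its start. The strongest of them, 31.2 kb away, had 4.32 and 5.10. Medians were 1.55 in replicate 1 and 0.993 in replicate 2, and 6 of the 8 sites were higher in replicate 1. With gaps of up to 25 kb allowed this cluster grew to 35 sites.

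Klf9, a Krüppel-like factor that is induced by steroid and thyroid hormones, had 9 sites (chr19:23133505-23151880), 6 of them intergenic and 4.47 to 7.49 kb from its start. Of these 6, the site 6.03 kb away had 3.40 and 4.45, and that at 5.07 kb had 3.6 and 3.95. Sox4, an HMG-box transcription factor, had 10 sites (chr13:28933501-28959820) on either side of its start, with 7.84 and 5.87 at the strongest and at most 3.2 and 2.52 at the other 9. Tcf7l1, a repressor of Wnt target genes, held 8 intronic sites of 10 (chr6:72623781-72685540), none above 1.91 and 2.2. The rank of its sites hardly matched between libraries (Spearman 0.107 over 10 sites), and a different site was the strongest in each library.

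Col6a3, a chain of collagen VI in the extracellular matrix, had 9 sites (chr1:90732869-90776120) with medians of 0.743 and 0.969, near those of distal sites outside clusters. Smad7, the inhibitory Smad of TGF-beta signalling, was the nearest start to 8 intronic sites of Ctif (chr18:75493041-75513340), 118 kb away. Of these 8 sites 3 lay in curated RefSeq enhancers. The strongest site in replicate 1 had 2.92 and 2.12, and that in replicate 2 had 2.12 and 2.56.

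Greb1, an oestrogen-regulated gene, was named after its values were seen and belongs to no list. Its 9 sites (chr12:16717752-16771600) were all intronic. The strongest had 7.18 and 10.4, a second had 2.68 and 4.03, and the other 7 lay at or below 1.32 and 1.60. No shared peak lay at its promoter. Lrrc74a (chr12:86790801-86806599) was likewise named for its values. Its strongest site, with 10.2 and 15.5, made up 41.9% and 53.1% of the summed signal of 8 sites.

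Cluster sites were stronger than distal sites outside clusters in each library. Median signal was 1.46 in cluster sites and 0.926 in the other distal sites in replicate 1, and 1.38 and 0.805 in replicate 2, a ratio of 1.65 ± 0.0969 (SD, n = 2 libraries). Clusters of 2 to 7 sites lay between, with 1.01 and 0.907, and single sites had 0.818 and 0.680. Of the 82 clusters 72 had a median above that of the other distal sites in both libraries, 8 in replicate 2 only and 2 in neither. Without sites at tRNA genes or with near-identical copies the medians of cluster sites were 1.4 and 1.38.

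Within clusters the signal was uneven. The strongest site was at the median 2.75 times the cluster's median in replicate 1 and 3.05 times in replicate 2, and it held 24.0% and 26.3% of the summed signal. Chd2 had the largest such ratio in replicate 1, 8.61, and Lrrc74a in replicate 2, 9.85. Nckap5l had the smallest in replicate 1, 1.24. In 47 of 82 clusters the same site was the strongest in both libraries. The rank correlation between libraries over the sites of a cluster had a median of 0.773 and ran from -0.0241 at Tekt5 to 0.976. Over all 766 cluster sites Spearman's coefficient was 0.803, and over the other distal sites 0.753. These points share their libraries and are not independent replicates.

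**Figure D2:**
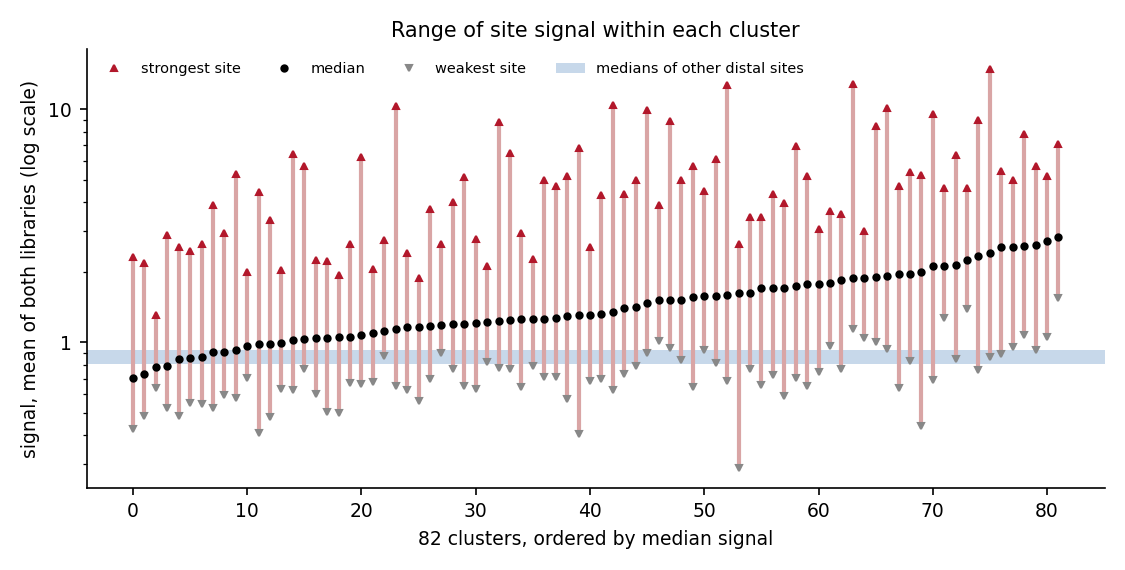
Site signal within each of the 82 clusters, as the highest, median and lowest of each library averaged over both libraries, on a log scale, with clusters ordered by their median. Triangles mark the strongest and the weakest site, dots the median, and the band the medians of the other distal sites in both libraries (0.805 and 0.926). Most medians lie above the band, and most clusters also hold sites within or below it.

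By the mean of both libraries, the highest median signals were found at Cstad, Abt1, Rara, Setd1b and Naglu. Setd1b (chr5:123135501-123160700), a histone H3 lysine 4 methyltransferase gene, had 8 sites with medians of 2.83 and 2.87, and 7 of its 8 sites were in the shorter lists of both libraries. Of these 8 sites 4 lay within 500 bp of starts of the non-coding genes AI480526 and Gm38102. The cluster nearest to Naglu (chr11:101052821-101067320), a lysosomal enzyme gene, had 8 sites in 14.5 kb with medians of 2.57 and 2.59. None of them lay in Naglu, and 5 were in introns of Atp6v0a1. The most widely spaced clusters were Slc6a6, the taurine transporter gene (7.92 kb), Lrrc28 (7.45 kb) and Ttc7b (6.96 kb). Their median signals were between 0.915 and 1.23. Farthest from any protein-coding start were Ncam1 (163 kb), Dynlrb2 (121 kb) and Smad7 (118 kb).

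The shorter lists held 61.2% of cluster sites in both libraries (469 of 766), against 55% of all distal sites. In replicate 1 the share was 71.5% of cluster sites and 73.8% of other distal sites, and in replicate 2 it was 73.8% and 64.3%. At equal signal below 2 the cluster sites were listed less often, apart from the few under 0.5 in replicate 2. Among sites with a signal of 0.5 to 1, 33.5% of 203 cluster sites were in the shorter list of replicate 1, against 66.0% of other distal sites. In replicate 2 these shares were 31.8% of 217 cluster sites and 59.1%. At a signal of 1 to 2 they were 77.8% against 95.4% in replicate 1 and 85.1% against 96.3% in replicate 2. Above 2 nearly all sites of both kinds were listed.

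**Figure D3:**
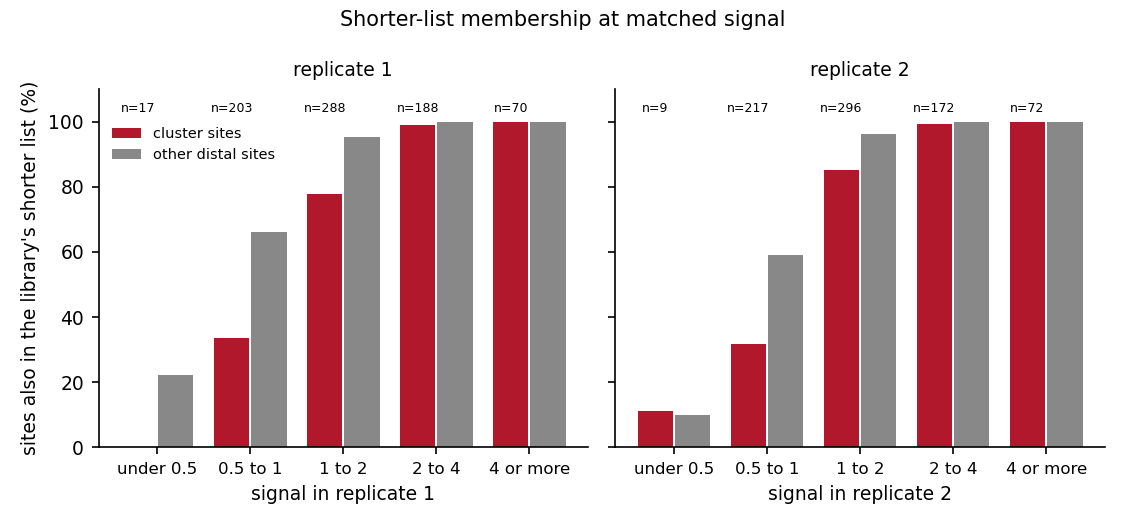
Share of sites that are also in the shorter peak list of their library, by signal, for cluster sites (left bars, with their number) and other distal sites (right bars), in replicate 1 and replicate 2. Between signals of 0.5 and 2 the cluster sites are listed less often in both libraries, 33.5% against 66.0% and 31.8% against 59.1% in the band of 0.5 to 1.

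Pooled over all spans, a larger share of the bases outside peaks was listed as open in the dense clusters. Outside all peaks, 2.61% and 2.92% of the bases within the spans were below the false discovery rate of 0.05 in replicates 1 and 2, against 1.95% and 1.69% within clusters of 2 to 7 sites. Over the whole spans, peaks included, the shares were similar, with 9.5% against 9.67% in replicate 1 and 10.2% against 9.2% in replicate 2. Listing was uneven between clusters. Of the whole span, 34.6% and 55.2% was listed at Nfic, against 3.28% and 3.96% at Slit3. How far single clusters carry the pooled difference was not tested. How far the raised signal between sites bears on the shorter lists was not tested either.

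Footprints of both libraries were present in 643 cluster sites (83.9%), against 75.6% of all distal sites. By library it was 87.1% and 94.4% of cluster sites, against 82.2% and 88.6% of other distal sites. Cluster sites held 9.59 and 11.6 footprints per kb, compared with 8.35 and 9.65 elsewhere. Footprint calls rise with signal, and at equal signal below 2 the share was lower in cluster sites in both libraries. At a signal of 0.5 to 1 it was 70.4% against 80.1% in replicate 1 and 87.1% against 91.1% in replicate 2. At 1 to 2 it was 91.0% against 97.2% and 97.0% against 98.1%. Above 2 nearly all sites of both kinds had a footprint.

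Of the cluster sites 447 (58.4%) were intergenic, 298 (38.9%) intronic and 21 (2.74%) exonic, against 54.0%, 41.5% and 4.48% of other distal sites. Clusters were mostly of a single kind, since 33 were wholly intergenic and 20 wholly intronic. Of the latter, those nearest to Slc7a5 (9 sites) and Cox4i1 (8 sites) were intronic only through the gene Gm20388, which overlaps both. A protein-coding gene body was overlapped by 52 clusters, and 27 had a protein-coding start inside the span. At the 81 nearest genes 68 promoters were open (84.0%), against 62.9% of all autosomal protein-coding genes. Their median promoter signals, 3.91 and 4.03, were close to the 4.05 and 4.16 of all open promoters.

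The 20 wholly intronic clusters held 179 sites, with a median of their medians of 1.12 in replicate 1 and 1.30 in replicate 2. The 33 wholly intergenic ones held 313 sites, with 1.55 and 1.53, and the 29 mixed ones 274 sites, with 1.36 and 1.25. Among the intronic clusters were those of Gsn (chr2:35259544-35302800), the actin-severing protein gelsolin, with 10 sites and medians of 0.953 and 1.15, and of Slit3 (chr11:35231761-35284120), a secreted guidance ligand, with 9 sites and medians of 0.667 and 0.743. Others lay in Adamts2 (chr11:50622281-50650394), a protease that matures procollagen, with medians of 1.03 and 1.29, and in Etv6 (chr6:134189621-134224320), an ETS-family repressor, with 1.13 and 1.31. The strongest sites of these 4 reached 1.98, 2.06, 2.35 and 1.82 in replicate 1 and 1.92, 2.58, 2.50 and 2.45 in replicate 2. All of these values lay above the upper quartiles of other distal sites, 1.53 and 1.27.

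The related genes Creb3l1 and Creb3l2 encode transcription factors held in the membrane of the endoplasmic reticulum, and each held an intronic cluster. Creb3l1 (chr2:92004701-92021240) had 8 sites with medians of 1.25 and 1.46 and a strongest site of 8.69 and 12.3. Creb3l2 (chr6:37391418-37435800) had 9 sites with medians of 1.17 and 1.45, but none above 1.97 and 3.15. Strong single sites were also found in the intergenic clusters of Chd2 (10.6 and 10.1) and Cpn2 (7.87 and 12), and at Nmur1 (9.61 and 10.8). All of these genes were named after their values were seen.

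Some clusters lay at non-coding genes. In all, 53 cluster sites (6.92%) were within 500 bp of the start of a gene that is not protein-coding in GENCODE M21, compared with 4.28% of all distal sites. Curated RefSeq enhancers held 11 cluster sites (1.44%), against 0.786% of all distal sites. Outside the rule for named clusters, the cluster nearest to Il17b (chr18:61634776-61666680) is named because it holds the starts of Carmn and Mir145a, non-coding genes of smooth muscle, and of Bvht. It had 9 intergenic sites with medians of 1.84 and 1.74.

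tRNA genes made up a set of their own. Within 500 bp of a tRNA gene lay 34 cluster sites (4.44%), in 5 clusters, against 0.457% of all distal sites. In the Abt1 cluster (chr13:23430861-23453840) 10 of 11 sites were at tRNA genes, and in the Olfr1423 cluster (chr19:12002234-12013540) 8 of 10. At Hist1h4h (chr13:23517161-23526660), a histone H4 gene, 7 of 8 sites were, and at Eef2k 3 of 9. Hist1h4h and Olfr1423 were also the shortest spans, at 9.5 and 11.3 kb.

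Sites at tRNA genes were stronger in replicate 1. Their median signals in the clusters were 3.18 in replicate 1 and 1.69 in replicate 2, and replicate 1 was higher at 31 of 34. All 8 sites of Hist1h4h were higher in replicate 1, with 2.05 to 6.67 there and 0.743 to 2.56 in replicate 2. The median log2 ratio of replicate 2 to replicate 1 was -0.98 at tRNA sites of clusters and 0.07 at the other 732 cluster sites. The 145 tRNA sites outside clusters showed the same, with 3.19 and 1.69 and a log2 ratio of -0.84. With 1 library each, whether this is a difference between animals or between preparations cannot be told apart. A B box was present in 16 of the 34 tRNA sites in clusters (47.1%), in 57 of the 145 others (39.3%) and in 0.203% of distal sites away from tRNA genes.

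**Figure D4:**
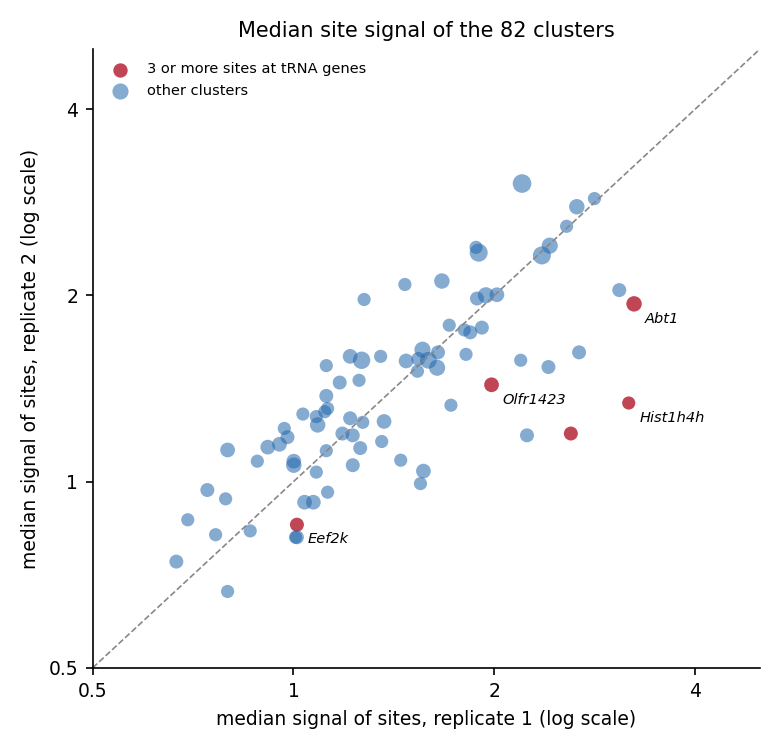
Median site signal of the 82 clusters in replicate 1 (x axis) and replicate 2 (y axis), both on a log scale, with point area by number of sites and a dashed line of equality. Red points are clusters with 3 or more sites at tRNA genes; all of them, the labelled Abt1, Hist1h4h, Olfr1423 and Eef2k included, lie below the line, with medians at Hist1h4h of 3.18 and 1.34.

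Over all 82 clusters, the tRNA clusters included, the medians of the libraries had a Spearman coefficient of 0.780. Replicate 2 had the higher median in 43 clusters and the higher signal at 406 of 766 sites. Clusters whose median log2 ratio was below -0.5 numbered 7, namely Hist1h4h, Abt1, Rpl14, Scarb1, Klrb1b, Olfr1423 and Ddr1, and no cluster had a ratio above 0.5.

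Near-identical copies at another position on the chromosomes were found for 13 cluster sites (1.70%), against 0.947% of other distal sites. Of these 13 sites 8 belonged to the 9 sites of the cluster nearest to 4930467E23Rik (chr8:19698821-19718220), which was named for this reason. Its medians were 1.18 and 1.20, and reads there can come from several loci. At Arl4d (chr11:101641401-101673620) 2 sites, within 500 bp of the non-coding genes Gm24950 and Gm23971, had a near-identical copy. These copies lay within the span of the same cluster.

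Motifs were searched in the central 200 bp of every distal site, on both strands and without mismatch. The KLF/SP element GGGNGGGG, a GC-box bound by Krüppel-like and SP factors, was present in 168 cluster sites (21.9%, 95% Wilson interval 19.1 to 25), against 11.4% of other distal sites. It occurred in 65 of 82 clusters. The ETS element CCGGAAG was found in 2.87% against 1.69%. The GATA element AGATAA was rarer in cluster sites, with 10.7% (8.71 to 13.1) against 13.4%, as was the SOX element AACAAT, with 5.35% against 7.49%. The homeodomain element TAATTA had 1.44% (0.804 to 2.55) against 2.34%, which lies within the interval. The intervals cover counting error only. They treat sites as independent, although sites share clusters and libraries, and they are not a test.

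Elements of common distal regulators were present at shares from nearly equal to somewhat lower in cluster sites. AP-1 (TGANTCA) was found in 12.1% of cluster sites and 13.5% of others, TEAD (GGAATG) in 12.9% and 13.4%, and RUNX (TGTGGTT) in 5.35% and 5.94%. NR5A (TCAAGGTCA) was found in 13 cluster sites, 1.70% (0.994 to 2.88), and in 2.17% of others. The AGGTCA element within it was present in 19.6% and 22.2%, and overlaps every NR5A match. CTCF was found in 16 cluster sites, each in a different cluster (2.09% against 2.64%). All 16 matches lay in footprints of replicate 1, against 89% of matches in other distal sites. In replicate 2 it was 81.2% against 73.4%.

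**Figure D5:**
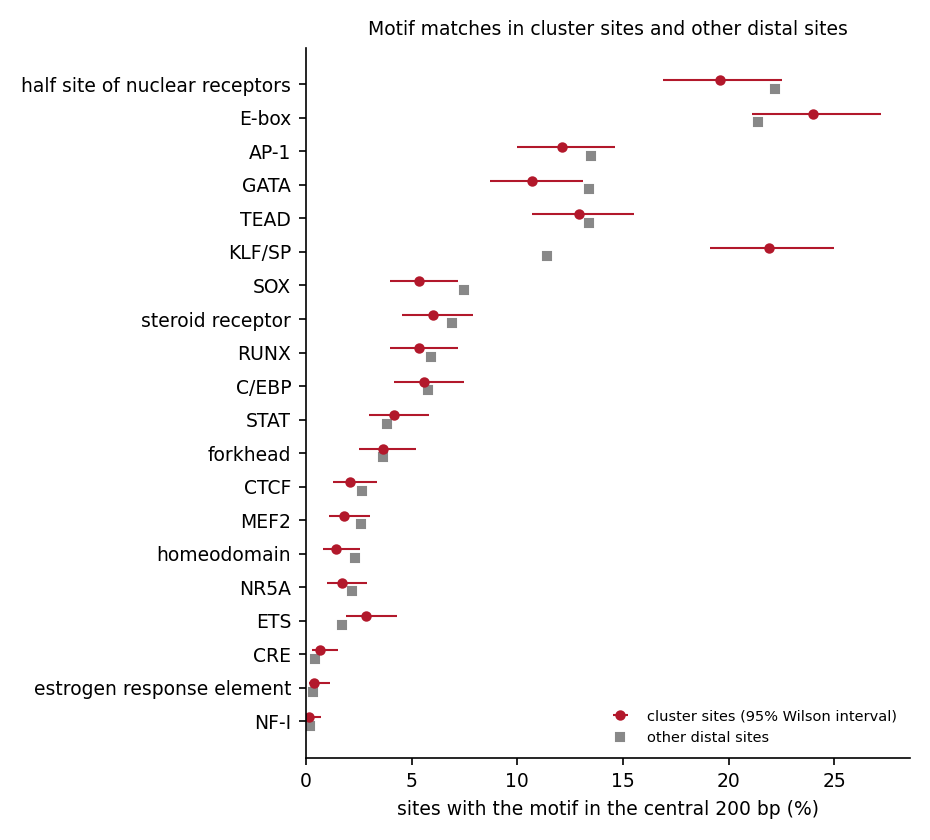
Share of sites with each of 20 motifs in their central 200 bp. Circles are the 766 cluster sites with 95% Wilson intervals, and squares are the 38425 other distal sites. The intervals cover counting error only and treat sites as independent, although sites share clusters. KLF/SP stands apart at 21.9% against 11.4%, while most other elements lie close together.

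Base composition moved with these shares. Median GC content was 55.5% in cluster sites and 52% in other distal sites, and 9.27% of cluster sites had a GC content of at least 65%, compared with 2.77% of others. Within bands of GC content, the KLF/SP element was present in 8.88% of cluster sites and 9.32% of others at a GC content of 50 to 55%. It was present in 24.9% and 16.7% at 55 to 60%, in 32.8% and 27.7% at 60 to 65%, and in 62.0% of 71 cluster sites and 41.4% of others above that. GATA shares were lower in cluster sites at a GC content below 45%, with 17.9% of 28 cluster sites and 23.4% of others, and at 45 to 50%, with 14.7% and 17.9%. They were higher in cluster sites at 50 to 55%, with 15.4% and 13.4%, at 55 to 60%, with 9.68% and 7.79%, and in both bands above that, with 4.48% and 3.75% and with 2.82% and 1.88%. The part of GC content in the motif shares was not tested further.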

How the data were processed

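DNase-seq of aged mouse ovary was analysed from 2 libraries. Per the labels, the deposited files are on build mm10, and each library has 2 narrow-peak lists, footprints and a false discovery rate list. Aligner and callers: not given in the sources used here. Peak signal in the deposited lists was scaled for depth by the authors. Footprints carry a constant p-value label of 0.01, and the deposited false discovery rates, a p-value type unit, are listed below 0.05.

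Peaks of the longer lists sharing at least 1 bp were merged. Starts were those of all transcripts of protein-coding genes in GENCODE M21, and chromosomes were read from GRCm38.p6. Sites within exons, then introns, were classed by their middle. Clusters were joined at gaps of up to 12 500 bp. Copies were sought with BLAST 2.17.0 (identity 95%, coverage 80%, word 40, seeds outside repeats), so copies of sites wholly in repeats were not found. Scripts ran under Python 3.11.15 with pyfaidx 0.9.0.4, SciPy 1.17.1, Matplotlib 3.10.9, pandas 2.3.3 and NumPy 2.4.6. Clustering, merging and distances were tested on simulated data. The members and lists were chosen with earlier results of these data known. Named clusters were the 15 with most sites, the 5 with the highest median signal, the 3 widest and 3 closest spaced, the 3 farthest from a start and up to 3 at genes of each list, 30 in all, of which some are not reported here; all other clusters were named after their values were seen, for X-boxes, tRNA genes, copies or extreme values. With 1 group, no test was run. Alternatives were other gaps, minimum sizes, overlaps, distances, starts, peak lists and windows, and each replicate left out.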

Additional observations from a re-analysis of the deposited data

How the results depend on the processing

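The number of clusters follows the rule's limits. With a gap of 5 kb there were 12 clusters with 104 sites, a signal ratio to other distal sites of 2.06, 18.3% of sites in introns and 66.3% in the shorter lists. A gap of 25 kb gave 447 clusters with 4688 sites and a ratio of 1.44. At least 6 sites gave 331 clusters, 2327 sites, a ratio of 1.48 and 35.4% in introns. At least 12 sites gave 9 clusters, 121 sites, a ratio of 2.21, 32.2% in introns and 72.7% in the shorter lists. The shorter peak lists gave 8 clusters with 82 sites, a ratio of 1.79 and 19.5% in introns. An overlap of 50% of both peaks gave 43 clusters with 390 sites, 35.1% in introns and 65.6% in the shorter lists. Over 5 kb from a start, 32.1% were in introns. With starts of transcripts of any type, 487 sites remained in clusters, 47.8% of them in introns. Leaving out a replicate, so that all peaks of the other counted, gave 293 to 305 clusters, 2854 to 3259 sites, ratios of 1.39 to 1.5 and a footprint share of 80.1% to 83.3%. The mean share of sites with a motif over all 20 motifs was 7.13%, and 3.90% and 9.52% in windows of 100 and 300 bp, against 7.06%, 3.91% and 9.66% in other distal sites. The ratio stayed above 1 under every alternative run. The causes were not tested beyond what each limit sets by construction. Chosen after seeing the data, starts of protein_coding transcripts only gave 92 clusters with 865 sites, and leaving out sites at tRNA genes or with copies 76 clusters with 705 sites and a ratio of 1.62. No paired analysis was possible because there is 1 group. Depth is unknown, and 2 libraries limit every error given here.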

Other observations

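The X chromosome was outside the rule and is given as values only. Of its 874 distal shared sites, 4 groups reached at least 8 sites. Genes named here are those with the start nearest to the first site of a group, not to its whole span. The largest group had 31 sites (chrX:50537224-50635520, Olfr1324), a larger number than any autosomal cluster. Its median signals were 3.28 in replicate 1 and 1.72 in replicate 2. A group of 19 sites near Mid1 (chrX:169969821-169999520) had medians of 2.36 and 2.42. Groups of 11 sites near Pls3 and of 9 sites near Bcor had medians of 2.01 and 1.49, and of 1.17 and 1.04. Copies of these sites elsewhere in the genome were not searched for.

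Among autosomal clusters, regions called in a single library also differed by place. Within all spans 78 regions were called in replicate 1 only and 131 in replicate 2 only, and the Cyb5d1 cluster alone held 25 of the latter. The Nfic cluster held 6 of replicate 1 only and 10 of replicate 2 only.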
